A study of Mus musculus with 20 samples.

Results

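Lipid droplets in hepatocytes are coated by perilipins and CIDE proteins and are emptied by lipases of the PNPLA family, and the RNA of 10 such genes was followed across a mouse liver study of genotype and diet. The genes were the perilipins Plin2, Plin3, Plin4 and Plin5, the CIDE genes Cidea, Cideb and Cidec, and the lipase genes Pnpla2, Pnpla3 and Pnpla5. They were taken by gene name, and all 10 were found among the 55385 gene rows. All 10 passed the filter on low counts that left 18905 genes for testing.

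Perilipins bind the droplet surface and limit the access of lipases. PLIN2 is the main coat protein of hepatocyte droplets, PLIN5 is prominent in tissues that oxidise fatty acids, and PLIN4 is best known from adipose tissue and muscle. CIDE proteins promote the exchange and fusion of droplets, and CIDEB also serves the lipidation of very-low-density lipoproteins. PNPLA2, also called ATGL, starts triglyceride hydrolysis, with ABHD5 as its coactivator and G0S2 as its inhibitor. PNPLA3 is a droplet-bound relative of PNPLA2 whose gene responds to SREBP-1c, a factor that LXRα induces.

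Liver RNA was sequenced from 4 groups of 5 libraries at week 24: LXRα-/- mice on a high-fat diet (HFD), wild-type (WT) mice on HFD, LXRα-/- mice on chow and WT mice on chow. LXRα is the oxysterol receptor encoded by Nr1h3. Titles name the genotype LXRα-/-, another label field calls it a knockdown, and the protocol text speaks of an adipose type of RNA although the tissue label is liver. The strain, the sex, the make of the allele and the animal behind each library are not given in the labels, so p-values speak only of the spread between libraries, which may be technical.

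The RNA of Nr1h3 did not follow the genotype labels downward. Its level in FPKM (fragments scaled to gene length and sequencing depth) was 77.2, 10.3, 67.1, 73.9 and 70.9 in LXRα-/- HFD, against 20.5, 18.7, 24.5, 14.3 and 17.5 in WT HFD. In LXRα-/- chow it was 46.6, 66.1, 58.9, 7.89 and 59.8, against 40.1, 32.8, 35.9, 41.3 and 45.3 in WT chow. Library 2 of LXRα-/- HFD and library 4 of LXRα-/- chow alone lay under all WT libraries of their diet. LXRα-/- is used below as the labels' name, and each direction between genotypes rests on it. Libraries held 75549139 to 108889938 counts. Hepatocyte markers summed to 39719.7 to 50627 FPKM in LXRα-/- HFD and 55942 to 73781 in WT HFD, without overlap. On chow they summed to 25109 to 58440.1 FPKM in LXRα-/- and 19753 to 48164 in WT. The part of these sums in the results for the 10 genes was not tested. Adipoq, which defines adipocytes, was at 5.56 FPKM in WT HFD library 1 and 1.05 FPKM in WT chow library 1, and at 0.173 FPKM or less in the other 18 libraries. Mitochondrially encoded genes took 14.1% to 20.4% of counts in LXRα-/- HFD, 9.77% to 19.3% in WT HFD and 18.2% to 29.6% in LXRα-/- chow, against 3.89% to 5.67% in WT chow. The 5 WT chow libraries thus stood apart from the other 15.

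Pnpla5 and Pnpla3 lie near each other on chromosome 15 and had the largest fitted differences between genotypes among the 10 genes, so the promoters of both are shown. Each window runs from 250 bases before to 50 bases after the transcript start, in the direction of the gene, from RefSeq on GRCm38.p6. Pnpla5 is at chr15:84123126-84123425 on the minus strand and Pnpla3 at chr15:84167566-84167865 on the plus strand. Capitals mark CCAAT boxes, which appear as ATTGG where they lie on the opposite strand, and the E-box CACGTG.
Pnpla5: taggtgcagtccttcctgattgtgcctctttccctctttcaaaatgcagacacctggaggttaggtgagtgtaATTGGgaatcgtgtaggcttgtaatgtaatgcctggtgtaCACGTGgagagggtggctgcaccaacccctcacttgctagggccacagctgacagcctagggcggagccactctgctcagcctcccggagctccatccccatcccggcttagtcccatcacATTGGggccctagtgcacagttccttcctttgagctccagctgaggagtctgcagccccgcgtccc
Pnpla3: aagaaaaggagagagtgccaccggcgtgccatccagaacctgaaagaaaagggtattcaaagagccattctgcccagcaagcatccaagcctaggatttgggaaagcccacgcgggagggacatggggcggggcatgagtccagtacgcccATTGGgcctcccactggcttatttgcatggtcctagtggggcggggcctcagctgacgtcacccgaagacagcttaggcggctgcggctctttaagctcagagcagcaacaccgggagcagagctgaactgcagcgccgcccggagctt
The Pnpla5 window held the E-box at -137 to -132 from the start and CCAAT boxes at -177 to -173 and -16 to -12. The Pnpla3 window held a CCAAT box at -99 to -95 and no E-box. Of 32851 promoter windows of this length, 37.4% held CCAAT and 7.15% held CACGTG on either strand. Neither window held the direct repeat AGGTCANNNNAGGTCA known from LXR elements (in 0.0152% of windows), AGGTCANAGGTCA known from PPAR elements (0.0396%), a single AGGTCA (16.3%) or the sterol element TCACNCCAC (1.24%). No match says only that these letters are not in these windows.

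Pnpla5, a droplet-associated lipase relative, was read in WT livers and almost not in LXRα-/- livers. Its counts were 0 in all 5 LXRα-/- HFD libraries, against 92, 29, 78, 173 and 25 in WT HFD. In LXRα-/- chow they were 4, 0, 0, 0 and 0, against 64, 0, 91, 92 and 354 in WT chow. The genotypes did not overlap on HFD, while on chow WT library 2 had no count and so overlapped with LXRα-/-.

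The size of the Pnpla5 difference is limited by how few reads it had. Pnpla5 passed the filter on low counts through WT libraries alone, so its lower level is not separate from how it entered the test. The commonest count above 0 over all genes and libraries was 4 and the next 8, so 4 counts were taken as 1 fragment. A floor of 3 fragments was then 12 counts over a group. A count of 1 was nearly as common as 8 (8393 and 9063 values), and many counts of these genes are not multiples of 4. The unit is thus an assumption, on which the floor and the counting intervals below rest. Against that floor Pnpla5 was at least 32.3-fold lower in LXRα-/- HFD than in WT HFD, with summed counts of 0 and 397. Its edgeR quasi-likelihood adjusted p (Benjamini-Hochberg, over all 18905 genes) was 0.0299 on HFD, which made it the single gene of the 10 to pass the threshold of 0.05 there, where 0.455% of all genes passed and 0.201% passed as lower. That call was lost in 13 of 33 other settings. It was lost without WT HFD library 1 or 4 or any single LXRα-/- HFD library, with 0 genes of the 10 then past the threshold. It was also lost, again leaving 0, with the clock level as a covariate, the mean log2 level of Arntl and Npas2 less that of Per3 and Dbp. That level was -5.71 ± 2.52 in LXRα-/- HFD and -0.94 ± 1.86 in WT HFD (SD, n = 5 each).

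On chow the summed Pnpla5 counts were 4 in LXRα-/- and 601 in WT. The ratio of library-scaled counts was 153-fold lower in LXRα-/- chow, with a 95% counting interval of 26.9 to 6061 that rests on 1 fragment (edgeR adjusted p = 0.000927). Intervals and floors of this kind cover counting error only.

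Pnpla3 had the same low levels in LXRα-/- livers. Its counts were 0, 8, 0, 0 and 20 in LXRα-/- HFD, against 152, 33, 163, 349 and 67 in WT HFD. In LXRα-/- chow they were 4, 8, 0, 4 and 0, against 92, 0, 86, 54 and 365 in WT chow. As for Pnpla5, the HFD groups did not overlap and WT chow library 2 had no count. Summed counts of 28 in LXRα-/- HFD and 764 in WT HFD gave a 26.7-fold lower level in LXRα-/- (95% counting interval 12.7 to 67.2), which did not pass the test (log2 fold change -4.82, SE 1.3, adjusted p = 0.105). Summed counts of 16 in LXRα-/- chow and 597 in WT chow gave a 37.9-fold lower level in LXRα-/- (14.5 to 141), which passed (log2 fold change -5.27, SE 1.35, adjusted p = 0.00374). Without WT chow library 5 the fitted chow value was -4.27 for Pnpla3 and -6.05 for Pnpla5, where all libraries gave -6.99, and without LXRα-/- chow library 1 it was -9.92 for Pnpla5. All of these passed. Pnpla3, like Pnpla5, entered the test through its WT libraries, so its lower level in LXRα-/- is not separate from how it entered.

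**Figure D1:**
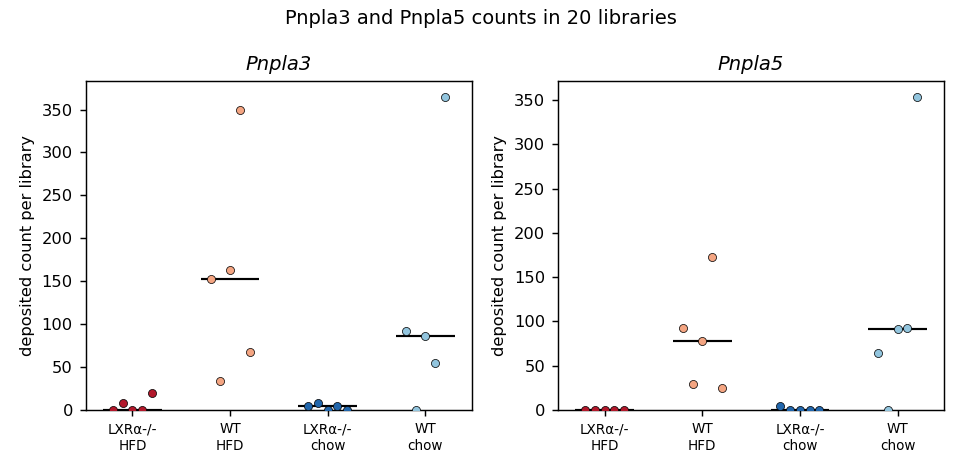
Deposited counts of Pnpla3 (left) and Pnpla5 (right) per library, with 1 point per library, 5 libraries per group and the median as a line. LXRα-/- libraries reach 20 counts of Pnpla3 and 4 of Pnpla5 at most, and WT libraries reach 365 and 354.

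Both genes are rare next to Pnpla2. Pnpla5 spans chr15:84112356-84123175 and Pnpla3 chr15:84167837-84187236 in the file's coordinates, which match GRCm38, and 44661 bases with 1 annotated gene lie between them. Within WT HFD both peaked in library 4, at 2.37 FPKM for Pnpla3 and 0.840 FPKM for Pnpla5, and within WT chow both peaked in library 5, at 2.07 and 1.43 FPKM. A processed pseudogene on the opposite strand, Gm20369, overlaps Pnpla3 by 307 bases, and strand use in the counting is not stated. Gm20369 itself averaged 7.28 ± 0.907 FPKM in LXRα-/- HFD and 9.17 ± 1.86 in WT HFD, and 9.61 ± 1.95 in LXRα-/- chow and 3.05 ± 0.361 in WT chow (SD, n = 5 each). Pnpla3 and Pnpla5 did not pass the test for diet in either genotype. The log2 fold change of WT HFD over WT chow was 0.50 for Pnpla3 and -0.46 for Pnpla5. The 10 genes themselves were not candidates when the closest log2 patterns over 20 libraries were sought. For Pnpla3 the 2 closest genes were Chrna4 and Icam4, at root mean square distances of 1.97 and 2.02 against a Pnpla3 SD of 3.17. For Pnpla5 they were Kcnj16 and Gm5640, at 1.87 and 2.04 against an SD of 3.31.

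Pnpla2, the main triglyceride lipase, supplied most PNPLA RNA. It made up 99.8% ± 0.331 of the summed FPKM of the 3 lipase genes in LXRα-/- HFD and 92.8% ± 7.62 in WT HFD, and 99.9% ± 0.133 in LXRα-/- chow and 97.6% ± 2.19 in WT chow (SD, n = 5 each). Its level on chow was 15.8, 15.2, 15.8, 15.6 and 16.5 FPKM in LXRα-/-, against 48.2, 18.9, 32.2, 43.9 and 55.9 FPKM in WT. Every LXRα-/- chow library lay under every WT chow library, and the log2 fold change was -1.35 (SE 0.25, adjusted p = 0.000209). On HFD its level was 20.1, 19.2, 16.4, 19.3 and 17.5 FPKM in LXRα-/-, against 26.4, 16.1, 18.5, 12.6 and 25.1 FPKM in WT. These HFD groups overlapped, and the log2 fold change was -0.30 (SE 0.24, adjusted p = 0.614). The LXRα-/- libraries were closer together than the WT libraries on both diets, with an SD of 1.49 FPKM in LXRα-/- HFD and 5.88 in WT HFD, and 0.483 FPKM in LXRα-/- chow and 14.5 in WT chow.

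Among the perilipins, Plin2, Plin3 and Plin5 were lower in LXRα-/- than in WT on chow. Plin2 was at 22.9, 31.0, 32.0, 38.0 and 19.5 FPKM in LXRα-/- chow, against 244, 98.1, 85.3, 89.4 and 137 FPKM in WT chow. Plin5 was at 4.51, 6.70, 7.19, 6.85 and 2.82 FPKM in LXRα-/- chow, against 20.6, 18.2, 15.9, 21.6 and 28.2 FPKM in WT chow. Neither gene's groups overlapped. Plin3, the exchangeable perilipin also known as TIP47, was at 2.94, 3.24, 2.82, 3.75 and 3.89 FPKM in LXRα-/- chow, against 10.7, 10.7, 11.9, 9.01 and 14.5 FPKM in WT chow, again without overlap. The log2 fold changes were -2.18 for Plin2 (SE 0.28, adjusted p = 6.06e-06), -1.77 for Plin3 (SE 0.16, adjusted p = 2.14e-07) and -1.94 for Plin5 (SE 0.24, adjusted p = 3.21e-06).

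Plin4 went the other way. It was at 3.88, 5.60, 5.03, 3.83 and 0.632 FPKM in LXRα-/- chow, against 1.06, 0.937, 0.375, 0.911 and 0.977 FPKM in WT chow (log2 fold change 2.08, SE 0.44, adjusted p = 0.000782). LXRα-/- chow library 5 alone lay among the WT values. On HFD Plin4 was at 3.19, 3.24, 7.71, 8.76 and 8.96 FPKM in LXRα-/-, against 2.39, 2.67, 1.35, 1.5 and 2.09 FPKM in WT. Those groups did not overlap in FPKM but did in counts scaled by library (TMM), and the log2 fold change of 1.45 did not pass edgeR's test (SE 0.43, adjusted p = 0.137).

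Plin4 and Plin5 are neighbours on chromosome 17, with 1797 bases between them and no other gene. Their FPKM ratio, Plin4 over Plin5, was 0.387 to 1.21 in LXRα-/- HFD (median 0.875) and 0.115 to 0.269 in WT HFD (median 0.167). On chow it was 0.224 to 0.859 in LXRα-/- (median 0.699) and 0.0236 to 0.0514 in WT (median 0.0423). The ratio was higher in every LXRα-/- library than in any WT library of the same diet. The ratio of Plin2 to Plin5 showed no such split, with medians of 6.39 in LXRα-/- HFD, 6.20 in WT HFD, 5.09 in LXRα-/- chow and 5.37 in WT chow. The annotated end of Hdgfl2 overlaps Plin4 by 17 bases.

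**Figure D2:**
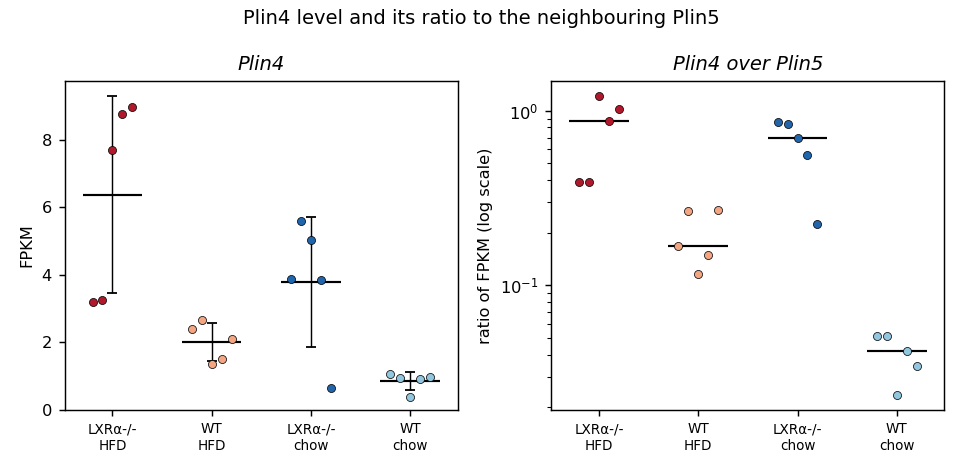
Plin4 level in FPKM (left, linear axis, with mean and SD) and the FPKM ratio of Plin4 to Plin5 (right, log axis, with the median), 1 point per library and 5 libraries per group. The ratio is 0.224 or more in each LXRα-/- library on chow and 0.387 or more in each on HFD, against at most 0.0514 in WT chow and 0.269 in WT HFD.

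All 4 perilipins together came to 72.9 ± 14.3 FPKM in LXRα-/- HFD and 86.1 ± 17.4 in WT HFD, and to 41.4 ± 10.5 in LXRα-/- chow and 164 ± 68.1 in WT chow (SD, n = 5 each). Plin2 was the most abundant perilipin per length in each group, at 73.9% ± 7.29 of that sum in LXRα-/- HFD and 79.3% ± 1.71 in WT HFD, and 69.4% ± 2.99 in LXRα-/- chow and 78.0% ± 5.84 in WT chow. Plin4 held 9.32% ± 5.23 in LXRα-/- HFD and 2.34% ± 0.582 in WT HFD, and 8.73% ± 4.00 in LXRα-/- chow and 0.548% ± 0.194 in WT chow.

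Plin3 on HFD was at 4.11, 3.50, 3.54, 3.73 and 3.44 FPKM in LXRα-/-, against 5.52, 4.37, 5.70, 4.19 and 4.60 FPKM in WT. The groups did not overlap, and the log2 fold change of -0.62 had an adjusted p of 0.0885 with edgeR (SE 0.16). Plin2 on HFD was at 61.7, 65.3, 30.0, 59.9 and 56.0 FPKM in LXRα-/-, against 88.7, 76.5, 68.0, 53.3 and 55.7 FPKM in WT. Plin5 on HFD was at 8.15, 8.36, 6.36, 10.0 and 8.76 FPKM in LXRα-/-, against 14.3, 10.1, 11.7, 10.1 and 7.78 FPKM in WT. Both overlapped between genotypes, with log2 fold changes of -0.54 (SE 0.27, adjusted p = 0.382) and -0.58 (SE 0.23, adjusted p = 0.248). Outside the 10 genes, the patterns closest to Plin2 over 20 libraries were those of Mrps18a and Mrrf. Their root mean square log2 distances were 0.31 and 0.32, against an SD of 0.89. Rtcb and Plekhb2 were closest to Plin3 (0.18 and 0.21, SD 0.77), and Ilvbl and Acox2 to Plin5 (0.18 and 0.22, SD 0.82). Cyp46a1 and C030034I22Rik were closest to Plin4 (0.59 and 0.60, SD 1.25), and Tmem50a and Vrk3 to Pnpla2 (0.24 and 0.25, SD 0.64).

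**Figure D3:**
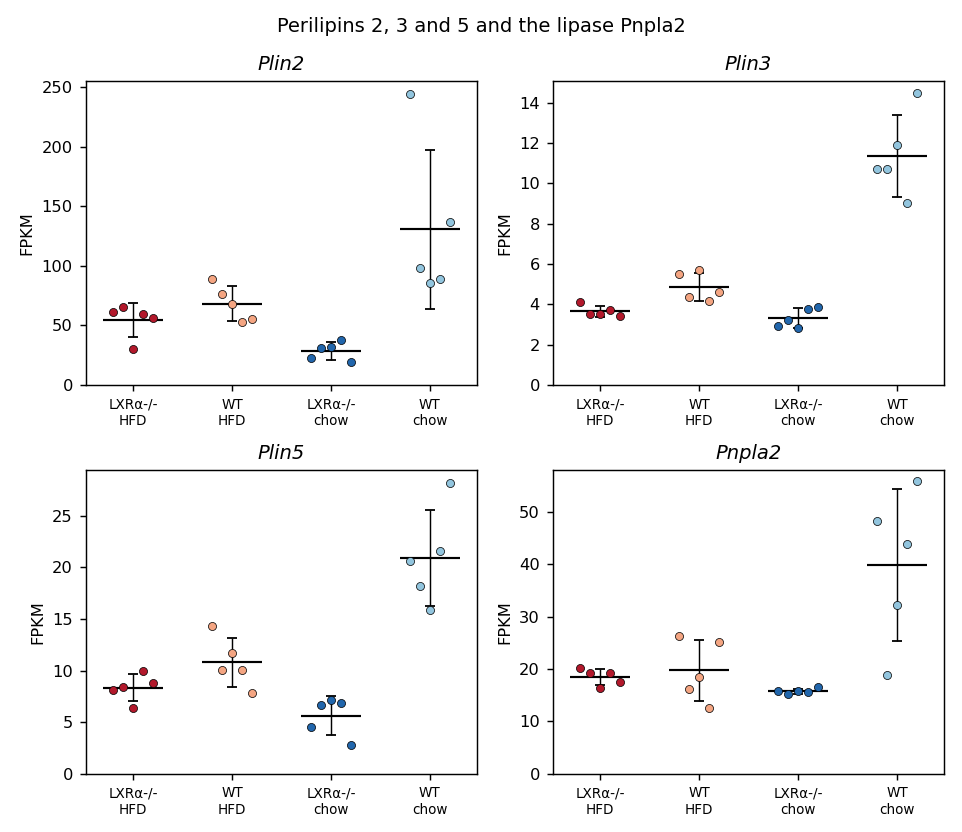
FPKM of Plin2, Plin3, Plin5 and Pnpla2 per library, with 1 point per library, 5 libraries per group, and the mean and SD as lines. LXRα-/- chow libraries lie under all WT chow libraries in all 4 panels, while on HFD the genotypes overlap except for Plin3.

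The CIDE genes differed in level and in stability. Cideb, the hepatocyte member, made up 91.6% ± 6.88 of the summed CIDE FPKM in LXRα-/- HFD and 95.7% ± 4.60 in WT HFD, and 96.2% ± 3.87 in LXRα-/- chow and 98.6% ± 1.23 in WT chow (SD, n = 5 each). Its level was 269 ± 72.7 FPKM in LXRα-/- HFD and 319 ± 45.6 in WT HFD, and 166 ± 62.6 in LXRα-/- chow and 208 ± 71.7 in WT chow. It passed the test in none of the 4 comparisons between groups with edgeR, and its smallest adjusted p there was 0.114, for WT HFD over WT chow (log2 fold change 0.65, SE 0.30). Nop9, on the opposite strand, overlaps Cideb by 1451 bases, so their counts may not be separate. The patterns closest to Cideb were those of Cox6a1 and Spp2 (0.18 and 0.22, SD 0.61).

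Cidea, known from brown fat and from fatty liver, was lowest in WT chow and spread widely elsewhere. It was at 1.89, 2.73, 1.0, 24.5 and 0.259 FPKM in LXRα-/- chow, against 0.311, 0.154, 0.185, 0.0577 and 0.286 FPKM in WT chow. On HFD it was at 6.62, 18.6, 1.40, 11.6 and 52.4 FPKM in LXRα-/-, against 11, 30.0, 0.900, 0.594 and 2.74 FPKM in WT. The log2 fold change was 4.93 on chow (SE 1.32, adjusted p = 0.00508), with 1 LXRα-/- chow library among the WT values, and 0.76 on HFD (SE 1.10, adjusted p = 0.813). The chow value leaned on LXRα-/- chow library 4, without which it was 2.78 and still passed. It did not pass with limma on log2(FPKM + 1) (1.63, adjusted p = 0.134) or on log2(TPM + 1) (1.76, adjusted p = 0.123).

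Cidec, also called FSP27, was at 6.26, 8.23, 2.37, 11.4 and 26.1 FPKM in LXRα-/- HFD, against 12.9, 18.3, 1.55, 1.53 and 3.82 FPKM in WT HFD. In chow livers it was at 1.44, 3.05, 1.89, 4.34 and 0.204 FPKM in LXRα-/-, against 6.16, 0.808, 0.930, 1.48 and 4.08 FPKM in WT. Genotypes overlapped on both diets, with log2 fold changes of 0.28 on HFD (SE 0.80, adjusted p = 0.917) and -0.32 on chow, neither past the test.

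Cidea and Cidec peaked in the same library of each group. Both peaked in library 5 of LXRα-/- HFD, library 2 of WT HFD, library 4 of LXRα-/- chow and library 1 of WT chow. Both were lowest in library 3 of LXRα-/- HFD, library 4 of WT HFD and library 5 of LXRα-/- chow, while in WT chow the lowest was library 4 for Cidea and library 2 for Cidec. Cidea and Cidec were not candidates for each other's closest pattern, nor were the other genes of the set named at the start. Of the other named genes tested, Cfd (complement factor D, also called adipsin) was closest to Cidea. Its root mean square log2 distance was 1.16 against a Cidea SD of 2.81, and Themis followed at 1.48. Closest to Cidec were Mogat1, a monoacylglycerol acyltransferase, at 0.92 against an SD of 1.67, and Sema5b at 0.94.

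Cfd is secreted by adipocytes and peaked in the same 4 libraries as Cidea. Cfd was at 9.92 to 309.6 FPKM in LXRα-/- HFD, 2.66 to 75.3 in WT HFD and 2.30 to 87.3 in LXRα-/- chow, against 0.322 to 6.73 in WT chow. All 8 adipocyte markers together came to 13.2 to 313 FPKM in LXRα-/- HFD, 5.74 to 78.3 in WT HFD, 4.94 to 89.7 in LXRα-/- chow and 4.32 to 15.5 in WT chow. Without Cfd they came, in the libraries where Cidea peaked, to 3.25 FPKM in LXRα-/- HFD library 5, 3.02 FPKM in WT HFD library 2, 2.40 FPKM in LXRα-/- chow library 4 and 8.79 FPKM in WT chow library 1. The other libraries held 3.12 to 4.33 FPKM of them in LXRα-/- HFD, 2.57 to 17.6 in WT HFD, 2.35 to 5.10 in LXRα-/- chow and 4.00 to 6.56 in WT chow, so WT chow library 1 alone of the 4 was the highest of its group. Adipoq was at 0 in LXRα-/- HFD library 5 and LXRα-/- chow library 4, at 0.0606 FPKM in WT HFD library 2 and at 1.05 FPKM in WT chow library 1. The part of adipocyte RNA in the Cidea values was not tested beyond leaving out the 2 libraries high in Adipoq. Of the 5 adipocyte markers tested, Cfd alone passed, both for genotype on chow and for diet in WT, where 43.4% and 29.3% of all genes passed.

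**Figure D4:**
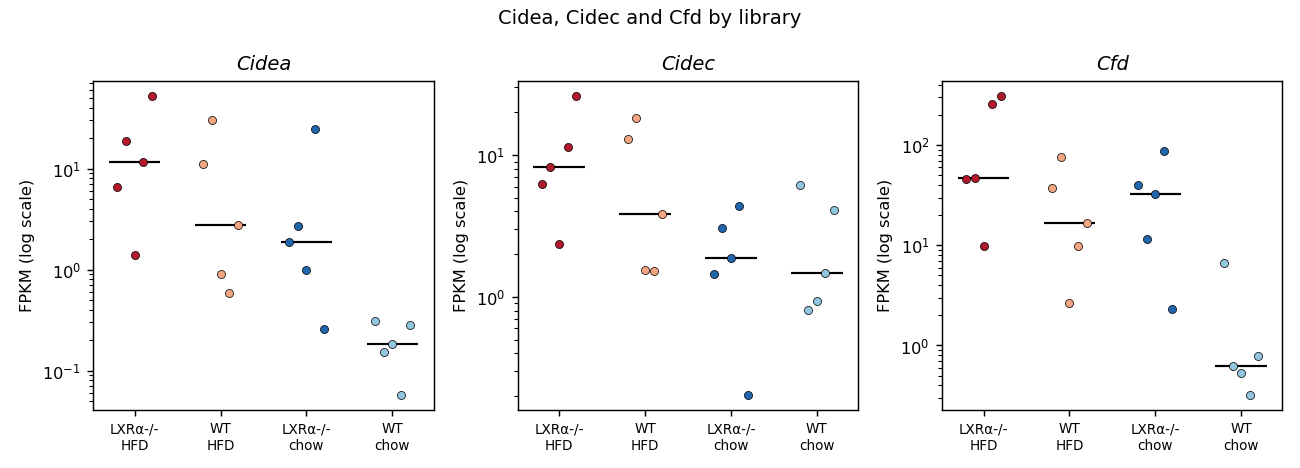
FPKM of Cidea, Cidec and Cfd per library on log axes, with 1 point per library, 5 libraries per group and the median as a line. Points stand from left to right by library number within a group, and the highest library of LXRα-/- HFD, WT HFD, LXRα-/- chow and WT chow is the same in the 3 panels.

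Genotype on chow was the comparison in which most of these genes differed. Of the 10, 8 passed the test on chow, where 43.4% of all genes passed. Cidea and Plin4 were higher in LXRα-/- (22.3% of all genes were), and Plin2, Plin3, Plin5, Pnpla2, Pnpla3 and Pnpla5 were lower (21.0% of all genes were). In library-scaled counts, groups did not overlap for 4 genes, all lower (Plin2, Plin3, Plin5 and Pnpla2), as for 15.0% of all genes. The median log2 fold change of the 10 was -1.56, against 0.08 for all tested genes. On HFD the median was -0.49, also with Pnpla5 set at its bound, against 0.03 for all genes. There 3 of the 10, Plin3, Pnpla3 and Pnpla5, did not overlap between genotypes in library-scaled counts, all lower, as for 3.06% of all genes. Pnpla3 and Pnpla5 passed the filter on low counts only through WT libraries, since LXRα-/- libraries reached 20 and 4 counts at most. On both diets their lower level is thus not separate from how they entered the test.

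Mitochondrial share moved with the chow comparison, at 22.0% ± 4.77 in LXRα-/- chow and 4.71% ± 0.743 in WT chow (SD, n = 5 each). The groups did not overlap in it, so share and genotype can hardly be told apart on chow. The part of the share in the result was not tested beyond its use as a covariate. With it in the model, 1 of the 8 calls held, that of Plin3 (log2 fold change -1.56, adjusted p = 0.0442). The other 7 had adjusted p of 0.144 to 0.402 and kept their direction, with log2 fold changes of 4.37 for Cidea, 1.89 for Plin4, -1.44 for Plin2, -1.09 for Plin5, -1.03 for Pnpla2, -6.96 for Pnpla3 and -9.98 for Pnpla5. How many of all genes passed in that model is not given, so the lost calls cannot be read as particular to these genes. Kupffer cell markers, those of resident liver macrophages, moved with genotype too. Their summed level was 4.70 to 11.7 FPKM in LXRα-/- HFD and 26.8 to 38.9 in WT HFD, and 7.20 to 30.7 in LXRα-/- chow and 53.6 to 101 in WT chow. All 6 passed as lower on chow, as did 21.0% of all genes, and 3 of 6 on HFD, as did 0.201%. Their part in the results for the 10 genes was not tested. In bulk liver RNA, fewer cells of a type and less RNA per cell cannot be told apart.

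Diet in WT livers changed 6 of the 10 genes, where 29.3% of all genes passed. Cidea rose by 5.62 in log2 units (SE 1.36, adjusted p = 0.00399), and so did Plin4, by 1.29 (SE 0.43, adjusted p = 0.0290), as did 14.3% of all genes. Without WT HFD library 2 the Cidea value was 4.32 and still passed, while with limma on log2(FPKM + 1) it was 2.15 and did not (adjusted p = 0.0716). Plin3 was lower in WT HFD than in WT chow, with a log2 change of -1.19 (SE 0.16, edgeR adjusted p = 2.42e-05). Plin5, Pnpla2 and Plin2 were lower as well, at -0.92 (SE 0.23, adjusted p = 0.00504), -0.98 (SE 0.24, adjusted p = 0.00495) and -0.85 (SE 0.27, adjusted p = 0.0228), as were 15.0% of all genes. WT HFD and WT chow did not overlap for Cidea and Plin4, both higher (10.5% of all genes), or for Plin3 and Plin5, both lower (12.2%). Cidec had a log2 fold change of 1.64 and did not pass (SE 0.82, adjusted p = 0.144).

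The WT diet comparison, like the interaction test below, shares the WT chow libraries with the chow genotype comparison. Single libraries decided some of its calls: that of Plin2 was lost without WT chow library 1 or WT HFD library 3, 4 or 5, and that of Plin4 without WT chow library 3 or WT HFD library 1 or 2. Without the 2 libraries that held Adipoq above 1 FPKM, a setting chosen after seeing the data, 4 of the 6 calls held, and Plin2 (adjusted p = 0.0522) and Plin4 (adjusted p = 0.0766) did not pass. The mitochondrial share was 15.1% ± 4.08 in WT HFD and 4.71% ± 0.743 in WT chow. The clock level stood at -0.94 ± 1.86 in WT HFD and -6.04 ± 0.75 in WT chow (SD, n = 5 each). Neither overlapped between these groups, so both can hardly be told apart from diet. With either in the model 1 call held, that of Plin3, and how many of all genes then passed is not given. With the mitochondrial share and with the clock level, the other 5 stood at 5.17 and 7.21 for Cidea, 1.17 and 1.04 for Plin4, -0.40 and -0.85 for Plin5, -0.80 and -0.48 for Pnpla2, and -0.40 and -0.42 for Plin2.

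Diet in LXRα-/- livers changed none of the 10 genes with edgeR or DESeq2, where 0.0159% of all genes passed with edgeR. Unadjusted p was under 0.05 for Cidec and Plin2, as for 1278 of all 18905 genes. Cidec had a log2 fold change of 2.24 for LXRα-/- HFD over LXRα-/- chow (SE 0.84, adjusted p = 0.630) and Plin2 of 0.79 (SE 0.27, adjusted p = 0.579). The groups overlapped for all 10 genes (0.830% of all genes did not overlap), and the median log2 fold change was 0.61, against -0.01 for all genes.

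The genotype difference itself depended on diet for 4 genes, where 19.4% of all genes passed the interaction test. The genotype difference on HFD minus that on chow was 1.65 for Plin2 (SE 0.39, adjusted p = 0.00537), 1.16 for Plin3 (SE 0.23, adjusted p = 0.0015), 1.36 for Plin5 (SE 0.32, adjusted p = 0.00596) and 1.05 for Pnpla2 (SE 0.34, adjusted p = 0.0375), in log2 units. All 4 were positive, as for 10.2% of all genes, so LXRα-/- lay less far under WT on HFD than on chow. For Cidea the value was -4.17 and did not pass (adjusted p = 0.0818). With the mitochondrial share or the clock level as a covariate, 0 of the 4 passed. How many of all genes then passed is not given. The values were then 0.97 and 1.05 for Plin2, 0.97 and 0.96 for Plin3, 0.61 and 1.28 for Plin5, and 0.77 and 0.41 for Pnpla2, with adjusted p of 0.106 to 0.691. Pnpla2 also lost its call without LXRα-/- HFD library 1, 2, 4 or 5, WT HFD library 2, 3 or 4, LXRα-/- chow library 1, 2, 3 or 4, or WT chow library 1, 4 or 5.

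**Figure D5:**
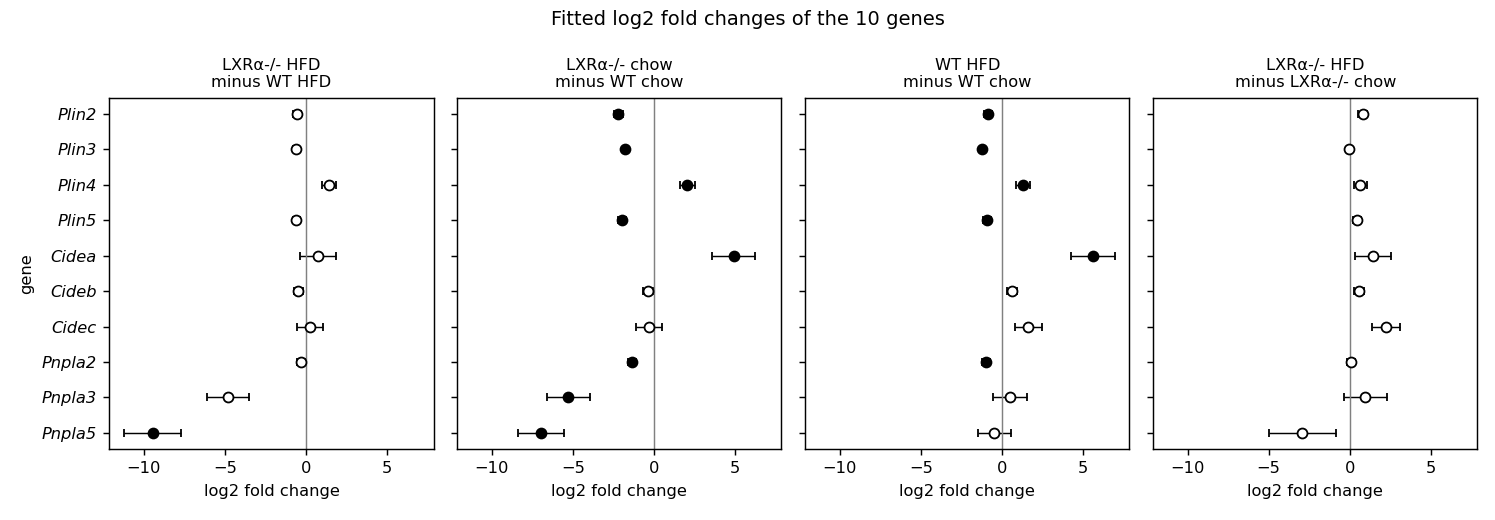
Fitted log2 fold changes of the 10 genes in the 4 comparisons between groups, with SE as bars and filled points where the edgeR adjusted p was under 0.05. Filled points number 1, 8, 6 and 0 from left to right, and the Pnpla5 values of LXRα-/- HFD depend on a prior count since no read was counted there.

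Partners of the lipases were measured beside them. Abhd5, the coactivator of ATGL, was lower in LXRα-/- chow than in WT chow, by a log2 ratio of -1.21 (SE 0.21, edgeR adjusted p = 0.000107). G0s2, its inhibitor, was higher, at 1.32 (SE 0.48, adjusted p = 0.0317), and it was also higher in WT HFD than in WT chow, at 1.80 (SE 0.49, adjusted p = 0.00852). The FPKM ratio of G0s2 to Pnpla2 had medians of 13.8 in LXRα-/- HFD and 11.6 in WT HFD, and of 11.7 in LXRα-/- chow and 1.72 in WT chow. Of 19 tested lipases and cofactors, 3 were higher and 7 lower in LXRα-/- chow than in WT chow (22.3% and 21.0% of all genes were), and 4 were higher and 1 lower in WT HFD than in WT chow (14.3% and 15.0% of all genes). Lipa, the lysosomal acid lipase, was at -0.88 for genotype on chow (adjusted p = 0.000109). Aadac, a microsomal esterase, and Pnpla6, a lysophospholipase, were at 0.69 (adjusted p = 0.00381) and 0.88 (adjusted p = 0.00680) for diet in WT. None of the 19 passed for genotype on HFD or for diet in LXRα-/-. There 2688 and 1278 of all 18905 genes had an unadjusted p under 0.05, as did 3 of the 19 in each. The smallest p were those of Mgll, the monoacylglycerol lipase, at -1.76 for genotype on HFD (adjusted p = 0.259) and 2.15 for diet in LXRα-/- (adjusted p = 0.568), of Hilpda, another inhibitor of ATGL, at -0.66 for genotype on HFD, and of Pnpla7 at 0.72 for diet in LXRα-/-.

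Of 24 tested genes of droplet formation and triglyceride export, 2 were higher and 11 lower in LXRα-/- chow than in WT chow, where 22.3% and 21.0% of all genes were. In WT HFD against WT chow, 3 were higher and 7 lower, where 14.3% and 15.0% of all genes were. The median log2 fold change of the 24 was -0.41 and -0.47, against 0.08 and 0.02 for all genes. Mttp, which loads triglyceride onto lipoproteins, was at -2.22 for genotype on chow (SE 0.19, adjusted p = 1.21e-07) and -1.45 for diet in WT (SE 0.19, adjusted p = 1.64e-05). Vps13c, a lipid transfer protein, was at -2.11 (adjusted p = 1.04e-05) and -1.87 (adjusted p = 7.63e-05). None of the 24 passed for genotype on HFD, where Hsd17b11 and Rab8a had the smallest p at -0.60 and -0.30, or for diet in LXRα-/-, where Tmem159, also called promethin, and Fitm2 had them at -0.76 and 0.63. The counts at unadjusted p under 0.05 were 4 and 2, against 2688 and 1278 of all 18905 genes.

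Among regulators of these genes, the receptors Ppara and Rxra were highest in WT chow. Ppara was at 2.42 ± 0.693 FPKM in LXRα-/- HFD and 1.63 ± 0.412 in WT HFD, and 1.38 ± 0.476 in LXRα-/- chow and 6.41 ± 2.58 in WT chow (SD, n = 5 each). Its log2 fold change was -2.24 for genotype on chow (SE 0.27, adjusted p = 2.59e-06) and -1.92 for diet in WT (SE 0.26, adjusted p = 2.74e-05). Rxra, the shared partner of LXR and PPAR receptors, was at -1.42 and -0.95, and Creb3l3 at -0.72 and -0.67 in the same comparisons, all past the test. Mlxipl, which encodes the carbohydrate sensor ChREBP, was higher, at 1.26 (adjusted p = 0.00119) and 1.12 (adjusted p = 0.00483). Ppargc1a passed as higher for genotype on chow at 1.55, and Srebf1, the gene of SREBP-1, for diet in WT at 0.94 (adjusted p = 0.0452). Pparg, Foxo1, Nr1h2 and Nr1h3 passed in neither.

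Srebf1 was at 47.2 ± 9.25 FPKM in LXRα-/- HFD and 43.2 ± 8.90 in WT HFD, and 34.9 ± 9.96 in LXRα-/- chow and 23.1 ± 15.2 in WT chow (SD, n = 5 each). It did not pass between genotypes on HFD (log2 fold change -0.08, SE 0.34, adjusted p = 0.947) or on chow (0.57, SE 0.34, adjusted p = 0.192). None of the 10 regulators passed for genotype on HFD or for diet in LXRα-/- with edgeR, where 2 and 1 had an unadjusted p under 0.05. Of all 18905 genes, 2688 and 1278 had one.

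Of 18 genes known to respond to PPAR receptors, 2 were higher and 4 lower in LXRα-/- chow than in WT chow (22.3% and 21.0% of all genes), and 6 were higher and 2 lower in WT HFD than in WT chow (14.3% and 15.0% of all genes). The medians were 0.05 and 0.92 on the log2 scale, against 0.08 and 0.02 for all genes. Cpt1a, the gate of mitochondrial fatty acid entry, was at -2.16 for genotype on chow (adjusted p = 4.75e-06) and -1.55 for diet in WT (adjusted p = 0.000242). Ehhadh, of peroxisomal oxidation, was at -2.42 for genotype on chow (adjusted p = 9.87e-05), and the liver hormone gene Fgf21 was at 4.10 for diet in WT (adjusted p = 0.000118). None passed for genotype on HFD, where Pdk4 and Fgf21 had the smallest p at -1.30 and -1.24, or for diet in LXRα-/-, where Cpt1a and Ehhadh had them at 0.86 and 1.25. The counts at unadjusted p under 0.05 were 2 and 9, against 2688 and 1278 of all 18905 genes.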

How the data were processed

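Counts per gene and FPKM for 20 liver libraries were used as the authors deposited them in 1 table, per the file headers. Where a count was 0, the FPKM of 0.0001 listed there was read as 0. Per the submitters' processing notes, HISAT2 2.0, StringTie 1.3.0, Bowtie 0.12.2 and the build mm8 were used. Not given in the sources used here are strand setting, counting program and the rule for shared reads. All 10 genes had the start and end of GENCODE M21 on GRCm38.

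Groups and replicate numbers came from the sample titles. The counts were tested with edgeR 4.0.16 in R 4.3.3 (filterByExpr, TMM, quasi-likelihood F test, 1 mean per group over 20 libraries) with Benjamini-Hochberg adjustment over 18905 genes and a threshold of 0.05, two-sided. The SE was derived from F. Library totals of 75549139 to 108889938 counts leave small counting error except for Pnpla3, Pnpla5 and, in WT chow, Cidea. Cidea had only 8 to 37 counts per library in WT chow, the group against which its largest differences were measured. Levels are the deposited FPKM. The procedure was tested on simulated data. Alternatives covered scaling, filters, covariates, the replicate block, only the groups compared, DESeq2 1.42.0, limma 3.58.1 on log2 FPKM and TPM, and leaving out libraries.

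The 10 genes and all lists were chosen with earlier results of these data known. In the text, all 10 genes and 10 regulators are named, with the 2 genes of smallest p per list and comparison. Also named are the 2 genes nearest to each of the 10 in log2 pattern over the libraries. The 10 genes themselves were not candidates for the nearest pattern. Abhd5, G0s2, Cfd, Adipoq and Gm20369 were named for their tie to a result.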

Additional observations from a re-analysis of the deposited data

Results flagged for a closer look

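Within groups, 39 sets of 5 FPKM values were searched for a library that stood apart by Dixon's criterion, and 5 had such a library, where chance gives about 1 in 20. Cidea was at 24.5 FPKM in LXRα-/- chow library 4, against 0.259 to 2.73 in the other 4 libraries of the group. Plin2 was at 30.0 FPKM in LXRα-/- HFD library 3, under the other 4 of that group, which lay at 56.0 to 65.3. Plin4 was at 0.375 FPKM in WT chow library 3, against 0.911 to 1.06 in the others. Pnpla5 was at 0.0192 FPKM in LXRα-/- chow library 1. With the other 4 libraries of that group at 0, any count meets the criterion, so this one says nothing of a library that stands apart. Pnpla5 was at 1.43 FPKM in WT chow library 5, against 0.402 or less in the others.

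The genotype difference depended on diet by the interaction test for 4 genes. The difference on HFD minus that on chow, in log2 units, was 1.65 for Plin2, 1.16 for Plin3, 1.36 for Plin5 and 1.05 for Pnpla2. The interaction test shares the WT chow libraries with genotype on chow and diet in WT, so these results are not separate.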

How the results depend on the processing

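Genotype on HFD gave 1 call among the 10 genes. It gave 0 with a filter of 1 CPM in 5 libraries (Pnpla5 was then not tested), with the clock level as a covariate, with limma on log2(FPKM + 1) or log2(TPM + 1), and without the 2 libraries high in Adipoq, where Pnpla5 had an adjusted p of 0.0848. It gave 2 with only the groups compared and 4 with DESeq2, which called Plin3, Plin4, Pnpla3 and Pnpla5. Leaving out single libraries gave 0 to 1. Mitochondrial share as a covariate left 1 call on chow and 1 for diet in WT, and 0 for the interaction, and the clock level left 1 for diet in WT and 0 for the interaction. The cause was not tested. How many of all genes passed in these other settings is not given, so these counts cannot be read as particular to the 10. Other settings kept these counts within 1.5 times, but with limma on log2(FPKM + 0.1) the 1 call for genotype on HFD was Pnpla3 (-2.74, adjusted p = 0.0365), and Pnpla5 had an adjusted p of 0.0516.

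Replicate numbers did not pair libraries: of 30 same-number pairs, 0 had a correlation of deviations over 0.1 (-0.12 to 0.08). With the replicate block, genotype on HFD gave 0 calls, and the sign turned for uncalled values of Cidec on chow (0.07), Pnpla5 for diet in WT (0.25) and the Pnpla3 interaction (-0.66).

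Every sign that turned under another setting belonged to an uncalled value. With the clock level these were, for genotype on HFD, Cidea (-0.98) and Cidec (-0.41), for diet in WT Pnpla5 (0.36), for diet in LXRα-/- Pnpla2 (-0.07) and for the interaction Cidec (-0.36) and Pnpla3 (-0.40). With mitochondrial share they were Cideb on chow (0.39), Pnpla3 for diet in WT (-0.49), Pnpla2 for diet in LXRα-/- (-0.03) and the Pnpla5 interaction (0.12). Plin3 for diet in LXRα-/- turned with library totals (0.15), log2(FPKM + 1) (0.11), log2(FPKM + 0.1) (0.14) and TPM (0.21). The Cideb interaction turned with library totals (0.05), without the libraries high in Adipoq (0.05), with both FPKM pseudocounts (0.04 each) and with TPM (0.57). The Pnpla3 interaction was -0.21, -0.57 and -0.10 and that of Pnpla5 0.09, 0.06 and 0.27 with FPKM + 1, FPKM + 0.1 and TPM, where Plin4 was at 0.24. Cidec on chow was 0.15 without the libraries high in Adipoq.

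Leaving out single libraries turned 17 values. Ranges over those fits were -0.21 to 2.07 for Cidea and -0.39 to 0.95 for Cidec (genotype on HFD), -0.79 to 0.15 for Cidec (genotype on chow), -0.14 to 1.5 for Pnpla3 and -1.04 to 0.46 for Pnpla5 (diet in WT), -0.10 to 0.09 for Plin3, -0.65 to 1.43 for Pnpla3 and -3.24 to 0.00 for Pnpla5 (diet in LXRα-/-), and -0.26 to 0.14 for Cideb, -0.08 to 1.28 for Cidec, -1.15 to 1.10 for Pnpla3 and -3.39 to 0.47 for Pnpla5 (interaction). Library totals moved the median of all genes to 0.23 for genotype on HFD, where that of TMM was 0.03, and TPM moved it to -0.15 on chow and for diet in WT. Pnpla5 had no value under the stricter filter, nor Pnpla3 or Pnpla5 in a fit of LXRα-/- libraries alone. Few reads limit Pnpla3, Pnpla5 and, in WT chow, Cidea, and the spread between libraries limits Cidea and Cidec.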
